A study of Mus musculus with 6 samples.

Results

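The 10 genes described here encode the collagen chains of bone, tendon and loose connective tissue, and were chosen by name: Col1a1, Col1a2, Col3a1, Col5a1, Col5a2, Col5a3, Col6a1, Col12a1, Col14a1 and Col20a1. All 10 were found among the 46078 genes of the count tables, and all 10 were among the 16813 genes that passed the low-count filter and were tested. Their RNA was measured by bulk sequencing of growth plate cartilage from 3 control and 3 Idh1 mutant mice at E18.5, with 1 library per animal. Every animal carried the Idh1 LSL/+ allele, a targeted allele that expresses a mutant Idh1 only after Cre removes a stop cassette. The Idh1 mutant animals (Col2a1-Cre; Idh1 LSL/+) also carried a Cre transgene driven by regulatory elements of the type II collagen gene, which is used by chondrocytes, and the control animals (Idh1 LSL/+) carried no Cre. Expression of mutant Idh1 and presence of the Cre transgene therefore cannot be told apart in this design. Any cell of the mutants in which Cre was never active keeps the stop cassette, and which cells of these samples had recombined was not measured here. Surrounding tissue was dissected away from the cartilage of the distal femur and proximal tibia, and the labels name the cells as growth plate chondrocytes. The age label and the source label give E18.5, while the text on animal care mentions 2 months.

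Collagens are built from 3 chains wound into a triple helix, in which each glycine-X-Y triplet starts with a glycine because only glycine has room at the centre of the helix. Col1a1 and Col1a2 encode the chains of type I collagen, the main fibril of bone, tendon and skin. Col3a1 encodes type III collagen of stretchable tissues, and Col5a1, Col5a2 and Col5a3 encode the chains of type V collagen, which sits inside type I fibrils and limits their width. Col12a1, Col14a1 and Col20a1 belong to the FACIT family, collagens with short, interrupted helices, and types XII and XIV lie on the fibril surface. Col6a1 is neither fibrillar nor a FACIT: it encodes a chain of type VI collagen, which forms beaded filaments close to cells. Cartilage fibrils are made chiefly of type II collagen instead, and type I collagen is characteristic of bone, tendon and the perichondrium that wraps the cartilage.

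The repeat of the helix can be read in the exons of these genes, many of which are 54 bases long, or 6 glycine-X-Y triplets. An exon of exactly 54 bases from each gene is given to let the shared repeat be compared between the fibrillar chains, the type VI chain and the FACITs, with the glycine codon that opens each triplet in capitals. The sequences are of the reference genome (GRCm38, exons of the principal transcript in GENCODE vM21), read 5′ to 3′ on the strand of the gene.
Col1a1: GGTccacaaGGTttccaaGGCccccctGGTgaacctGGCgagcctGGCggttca
Col1a2: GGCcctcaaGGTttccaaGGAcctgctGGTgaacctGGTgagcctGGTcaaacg
Col3a1: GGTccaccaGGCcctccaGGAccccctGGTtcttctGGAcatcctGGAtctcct
Col5a1: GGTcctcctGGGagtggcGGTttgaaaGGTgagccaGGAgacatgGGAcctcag
Col5a2: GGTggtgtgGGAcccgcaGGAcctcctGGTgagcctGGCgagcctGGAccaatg
Col5a3: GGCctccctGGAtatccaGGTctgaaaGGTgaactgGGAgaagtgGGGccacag
Col6a1: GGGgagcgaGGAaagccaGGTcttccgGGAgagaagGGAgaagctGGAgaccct
Col12a1: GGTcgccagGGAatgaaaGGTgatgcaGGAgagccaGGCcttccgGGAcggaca
Col14a1: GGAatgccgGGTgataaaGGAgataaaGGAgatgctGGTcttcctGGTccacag
Col20a1: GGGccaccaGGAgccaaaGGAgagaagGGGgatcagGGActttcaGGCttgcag
The exon of Col1a1 lies at chr11:94939904-94939957 and that of Col1a2 at chr6:4515481-4515534, both on the forward strand. The exons of Col3a1 (chr1:45325360-45325413) and Col5a1 (chr2:27965251-27965304) are on the forward strand, and those of Col5a2 (chr1:45422386-45422439) and Col5a3 (chr9:20801068-20801121) on the reverse strand. The exons of Col6a1 (chr10:76719623-76719676) and Col12a1 (chr9:79612916-79612969) are on the reverse strand. The exons of Col14a1 (chr15:55472927-55472980) and Col20a1 (chr2:181013236-181013289) are on the forward strand. All 10 are coding exons and hold no untranslated sequence.

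The 6 fibrillar genes had 51 to 67 coding exons in the principal transcript, of which 21 to 31 were exactly 54 bases long, and their longest unbroken glycine-X-Y run was 337 to 344 triplets. Col6a1 had 35 coding exons, 3 of them of 54 bases, and a longest run of 87 triplets. Col12a1, Col14a1 and Col20a1 had 65, 47 and 35 coding exons, each with 4 of 54 bases, and in each of the 3 the longest run was 32 triplets. Over the 10 genes 168 of 523 coding exons (32.1%) were 54 bases long, against 1332 of 197360 (0.675%) over the 21894 principal transcripts with coding exons in the annotation.

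**Figure D1:**
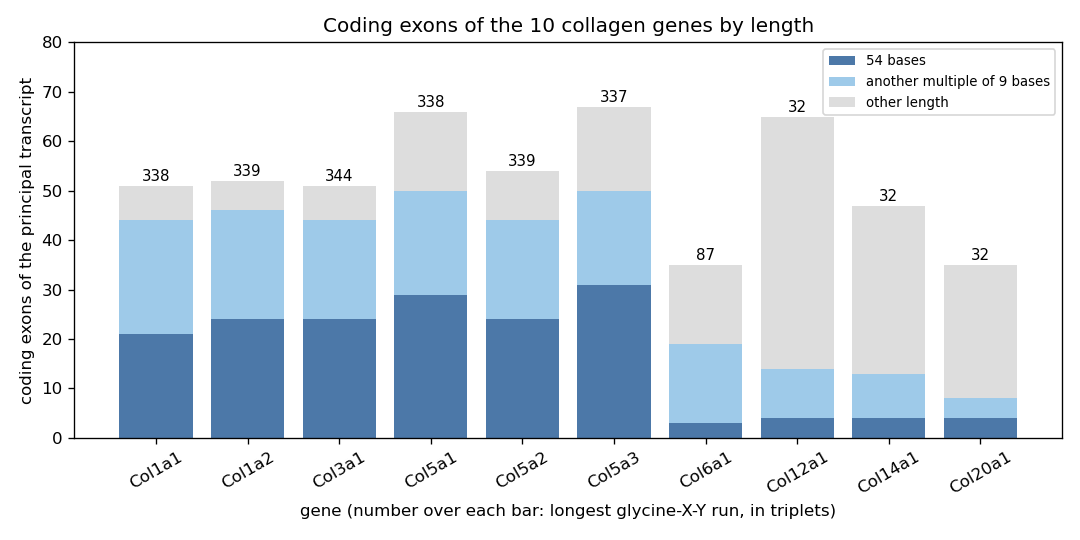
Stacked bars give the number of coding exons of the principal transcript of each gene by length (54 bases, another multiple of 9 bases, any other length), and the number over each bar is the longest glycine-X-Y run in triplets. The fibrillar genes have runs of 337 to 344 triplets, Col6a1 of 87 and the 3 FACIT genes of 32.

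The libraries held 23445687 to 30415773 counted reads, and the 10 genes together took 8.45 to 10.3% of them. Levels are given in CPM (each gene's counts relative to the library total, scaled between libraries with TMM factors of 0.964 to 1.02), and 3 counts, used as the detection limit, came to 0.0986 to 0.128 CPM, which covers counting error only. The chondrocyte markers of the label were present: the 7 measured markers summed to 3193 to 6434 CPM in the control mice and 5033 to 7091 CPM in the mutant mice. Muscle markers summed to 13930 to 21580 CPM over the 6 libraries, so that muscle RNA was present beside that of chondrocytes. Tendon markers summed to 2118 to 3457 CPM and osteoblast markers to 443 to 2518 CPM over the same libraries. Growth plate chondrocytes also express some genes of these lists, such as Fmod, Runx2 and Sp7, so these sums do not separate the tissues. Idh1, the targeted gene, was at 37.3, 39.2 and 65.4 CPM in the control mice and 47.6, 47.7 and 56.3 CPM in the mutant mice, which overlapped, and its total count does not separate the mutant from the wild-type transcript. Mutant 3 had 26356 counts of Xist and 512 counts over Y-linked genes, where the other 5 libraries had 0 to 13 and 4193 to 5829.

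None of the 10 collagen genes passed the test between genotypes. The quasi-likelihood test of edgeR was adjusted by Benjamini-Hochberg over all genes tested, with a threshold of 0.05 on the adjusted p, and it called 32 genes in all, or 0.190% of those tested. The log2 fold change (mutant over control) was above 0 for 7 of the 10 genes and below 0 for 3, with a median of 0.03 beside −0.0026 over all genes tested. At an unadjusted edgeR p under 0.05, 1 of the 10 was higher in the mutant mice (3.71% of all genes) and 0 were lower (4.93% of all genes). Likewise 1 of the 10 had all 3 mutants above all 3 controls (6.85% of all genes), and 0 had all mutants below all controls (7.58% of all genes). That gene was Col20a1 in each case. In bulk tissue, fewer cells of a type and less RNA per cell cannot be told apart, and the p-values measure the spread between these animals, whose litters are not in the labels.

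Col1a1 (ENSMUSG00000001506, chr11:94936224-94953042, forward strand) had the highest CPM of all genes tested. Its level was 33200, 33420 and 47780 CPM in controls 1, 2 and 3, and 37900, 39220 and 38110 CPM in mutants 1, 2 and 3. The mutants lay inside the range of the controls, which was set by control 3 on the high side. The means were 38130 ± 8355 CPM in the control mice and 38410 ± 708 CPM in the mutant mice (SD, n = 3 each). The log2 fold change was 0.01 with a standard error of 0.19 and a 95% interval of −0.42 to 0.44 (Benjamini-Hochberg adjusted p = 0.995 in edgeR), that is a fold between 0.747 and 1.36.

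Col1a2 (ENSMUSG00000029661, chr6:4504814-4541543, forward strand) was second of all genes tested by CPM, at 22320, 21720 and 27010 CPM in the control mice and 21230, 22060 and 21710 CPM in the mutant mice. Control 3 was again the highest library, and the groups overlapped. The log2 fold change was −0.13 with a standard error of 0.16 and a 95% interval of −0.48 to 0.22 (Benjamini-Hochberg adjusted p = 0.888 in edgeR). The counts of Col1a2 relative to those of Col1a1 in the same library, a ratio that no library scaling can move, were 67.2, 65.0 and 56.5% in the control mice and 56.0, 56.3 and 57.0% in the mutant mice. The ratio of control 3 lay among those of the mutants, and controls 1 and 2 were higher. The log2 difference in this ratio was −0.15 (two-sided exact permutation test, p = 0.2, where 3 animals against 3 allow no p below 0.1).

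Type I collagen thus differed more between the control animals than between the genotypes, a spread that rested on control 3. Apart from control 3, the controls had less Col1a1 than any mutant. Without control 3 the log2 fold change was 0.21 for Col1a1 and −0.02 for Col1a2 (Benjamini-Hochberg adjusted p = 0.747 and 0.983 in edgeR). Both of its chains together took 5.65, 5.56 and 7.20% of all counts in the control mice and 5.95, 6.16 and 5.96% in the mutant mice. In control 3, where both chains were highest, the muscle markers summed to 21580 CPM (the highest of the 6 libraries), the tendon markers to 3457 CPM (the highest), the osteoblast markers to 443 CPM (the lowest) and the chondrocyte markers to 3193 CPM (the lowest). Fmod, which is also abundant in cartilage, made up 1913 CPM of that tendon sum and was highest in control 3. The tendon markers Tnmd, Scx, Kera and Ptx4 were instead lower in control 3 than in the other controls, and Mkx and Thbs4 lay between them. The part of these tissues in the level of type I collagen was not tested.

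Col3a1 (ENSMUSG00000026043, chr1:45311538-45349706, forward strand) was at 14030, 16220 and 15880 CPM in the control mice and 13470, 16260 and 17770 CPM in the mutant mice. Its lowest and its highest library were both mutants, so that the mutants enclosed the controls. The log2 fold change was 0.04 (standard error 0.16, 95% interval −0.31 to 0.40, Benjamini-Hochberg adjusted p = 0.969 in edgeR).

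Of the type V chains, Col5a1 (ENSMUSG00000026837, chr2:27886425-28039514, forward strand) was at 3094, 3246 and 4060 CPM in the control mice and 3406, 3565 and 3979 CPM in the mutant mice. The range of the mutants lay within that of the controls, and the log2 fold change was 0.07 (95% interval −0.24 to 0.38, Benjamini-Hochberg adjusted p = 0.936 in edgeR). Col5a2 (ENSMUSG00000026042, chr1:45374321-45503282, reverse strand), the neighbour of Col3a1 on chromosome 1, was at 2782, 2889 and 2728 CPM in the control mice and 2392, 2920 and 3164 CPM in the mutant mice. The mutants again enclosed the controls, as for Col3a1, with mutant 1 lowest and mutant 3 highest. Its log2 fold change was 0.01 (95% interval −0.27 to 0.30, Benjamini-Hochberg adjusted p = 0.990 in edgeR). Col5a3 (ENSMUSG00000004098, chr9:20770050-20815067, reverse strand), the least abundant type V chain, was at 336, 418 and 480 CPM in the control mice and 351, 439 and 571 CPM in the mutant mice. The groups overlapped over most of their range, and the log2 fold change of 0.14 had a 95% interval of −0.26 to 0.55 (Benjamini-Hochberg adjusted p = 0.891 in edgeR).

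Col6a1 (ENSMUSG00000001119, chr10:76708792-76726168, reverse strand) was at 3116, 3588 and 4035 CPM in the control mice and 3557, 3397 and 4113 CPM in the mutant mice, with a log2 fold change of 0.04 (95% interval −0.26 to 0.35, Benjamini-Hochberg adjusted p = 0.963 in edgeR). The 2 libraries with the highest level were control 3 and mutant 3. Col6a2 and Col6a3, which encode the chains that assemble with that of Col6a1, had log2 fold changes of −0.05 and 0.07 (Benjamini-Hochberg adjusted p = 0.963 and 0.950 in edgeR). The ratio of Col6a2 to Col6a1, in counts per base of transcript, was 1.01, 1.01 and 1.04 in the control mice and 0.936, 0.984 and 0.966 in the mutant mice. All 3 mutants were below all 3 controls, by 0.09 on the log2 scale (two-sided exact permutation test, p = 0.1, the smallest that 3 animals against 3 allow). The ratio of Col6a3 to Col6a1 overlapped between the genotypes, with a log2 difference of 0.03 (two-sided exact permutation test, p = 0.7).

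Among the FACIT genes, Col12a1 (ENSMUSG00000032332, chr9:79598991-79718831, reverse strand) was at 2444, 2359 and 2826 CPM in the control mice and 2268, 2458 and 2586 CPM in the mutant mice. The groups overlapped, and the log2 fold change was −0.06 (95% interval −0.33 to 0.20, Benjamini-Hochberg adjusted p = 0.939 in edgeR). Col14a1 (ENSMUSG00000022371, chr15:55307750-55520803, forward strand) was at 1714, 1732 and 2016 CPM in the control mice and 1358, 1626 and 1944 CPM in the mutant mice. Mutants 1 and 2 were below all controls and mutant 3 was among them. The log2 fold change was −0.15 with a standard error of 0.14 and a 95% interval of −0.47 to 0.17 (Benjamini-Hochberg adjusted p = 0.846 in edgeR).

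Col20a1 (ENSMUSG00000016356, chr2:180986535-181017540 in the count tables, forward strand), a FACIT gene of little-known function, was the scarcest of the 10 genes and the one with the largest estimated change. It had 179, 131 and 200 counts in the control mice and 412, 315 and 296 counts in the mutant mice, or 6.36, 4.27 and 7.23 CPM and 17.5, 12.8 and 10.2 CPM. All mutants were above all controls, and the nearest animals were control 3 and mutant 3, whose exact Poisson 95% intervals for counting error, 6.26 to 8.30 CPM and 9.07 to 11.4 CPM, did not overlap. The means were 5.95 ± 1.52 CPM in the control mice and 13.5 ± 3.68 CPM in the mutant mice (SD, n = 3 each). The log2 fold change was 1.18 with a standard error of 0.23 and a 95% interval of 0.66 to 1.70, a 2.26-fold higher level (interval 1.57 to 3.26). Its Benjamini-Hochberg adjusted p of 0.134 in edgeR missed the threshold.

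The call of Col20a1 rested on the tool and the filter. It passed with DESeq2 (adjusted p = 0.000164), which called 1.15% of all genes, with DESeq2 and the replicate number as a block (adjusted p = 0.00151, 0.571% of genes called), and with edgeR when no low-count filter was used (adjusted p = 3.61e-05, 0.903% of genes called). With each library left out in turn its log2 fold change was between 0.95 and 1.35, and its adjusted p in edgeR between 0.121 and 0.336. The count tables end Col20a1 at 181017540, while the GENCODE annotation ends it at 181018363. The first 741 bases of Col20a1 are also those of BX649560.1, a gene on the same strand, so that reads there could be left uncounted.

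**Figure D2:**
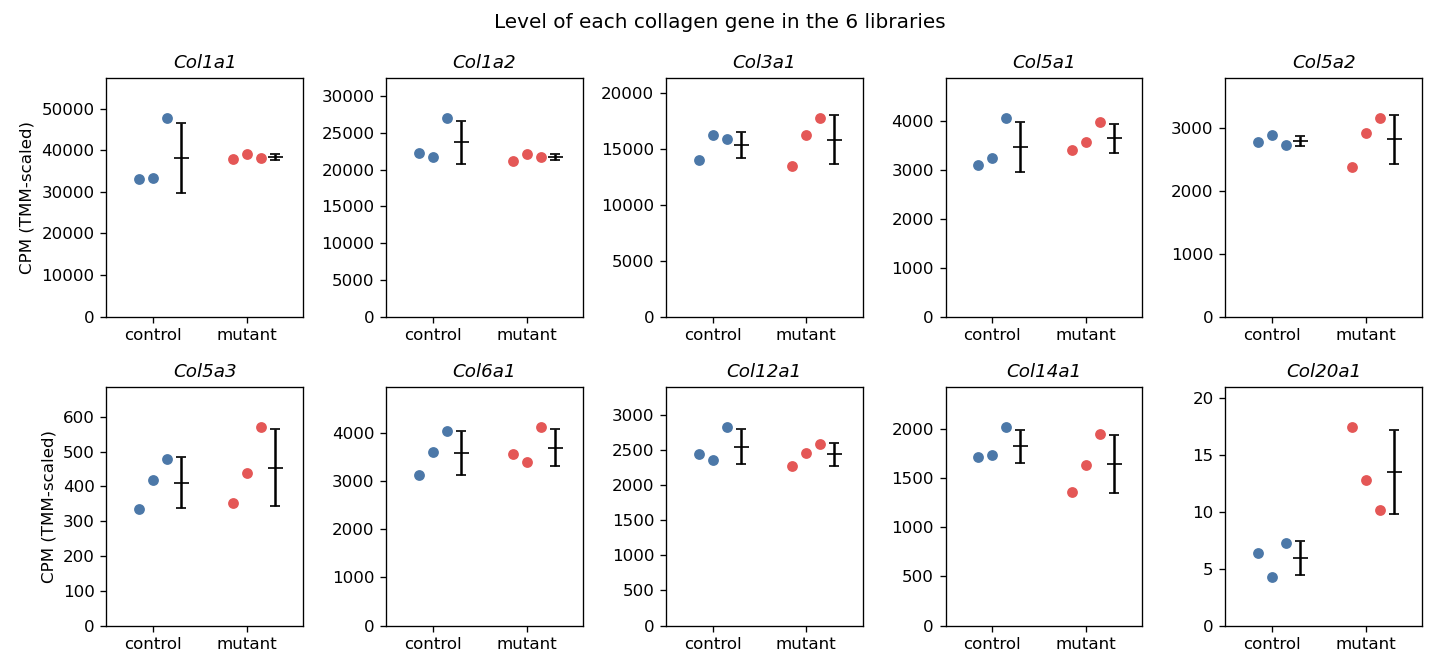
Each panel gives the level of 1 gene in CPM on a linear axis from 0, with a point for each of the 3 control and 3 mutant animals, a tick for the mean and a bar for 1 SD. The points overlap between the genotypes in 9 panels, and in the panel of Col20a1 the mutants (10.2 to 17.5 CPM) are above the controls (4.27 to 7.23 CPM).

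Levels of different genes were compared per kilobase of the principal transcript, as means over the 6 libraries. Col1a1 came first at 6454 CPM per kilobase, before Col1a2 at 4240 and Col3a1 at 2805. Col6a1 (886), Col5a2 (425), Col5a1 (423), Col14a1 (305), Col12a1 (216) and Col5a3 (70.7) followed, and Col20a1 was last at 1.94 CPM per kilobase. The principal transcript of Col20a1 (5012 bases) is longer than the 4193 exonic bases over which its reads were counted, which lowers this value. Over the counted length it was at 2.32 CPM per kilobase, still last. Neighbours in this order did not overlap over the 6 libraries, except Col5a2 with Col5a1 (361 to 478 and 368 to 483) and Col14a1 with Col12a1 (239 to 355 and 197 to 246). Col14a1 was nonetheless above Col12a1 within each of the 6 libraries, while Col5a1 and Col5a2 changed places between libraries. On this scale Col6a2 (879 CPM per kilobase) was level with Col6a1. The length used matters here: divided instead by the summed length of all annotated exons, Col1a2 was at 0.322 of Col1a1 in place of 0.660 (geometric means of the 6 libraries), a choice that leaves comparisons between genotypes as they are.

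Every library held more Col1a1 than Col2a1 RNA. Col2a1, the type II collagen gene that marks chondrocytes, was at 3240, 4280 and 1923 CPM in the control mice and 5245, 3659 and 3972 CPM in the mutant mice, with a log2 fold change of 0.45 (95% interval −0.13 to 1.03, Benjamini-Hochberg adjusted p = 0.699 in edgeR). Per base of transcript, Col1a1 was 8.82, 6.72 and 21.4 times as abundant as Col2a1 in the control mice, and 6.22, 9.23 and 8.26 times in the mutant mice. Control 3, with the lowest Col2a1 and the highest Col1a1 level, stood above the other 5 libraries. The log2 difference in this ratio between the genotypes was −0.47 (two-sided exact permutation test, p = 0.5), and without control 3 it was 0.02.

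Relative to Col1a1 in the same library, the genes other than Col20a1 kept proportions that overlapped between the genotypes. Col3a1 had 33.2 to 48.5% of the Col1a1 counts in the control mice and 35.6 to 46.6% in the mutant mice. Col5a1 had 8.50 to 9.71% and 8.99 to 10.4%, and Col5a2 5.71 to 8.65% and 6.31 to 8.30%. The corresponding ranges were 1.004 to 1.251% and 0.927 to 1.497% for Col5a3, and 8.45 to 10.7% and 8.66 to 10.8% for Col6a1. Among the FACIT genes, Col12a1 had 5.91 to 7.36% of the Col1a1 counts in the control mice and 5.98 to 6.79% in the mutant mice, and Col14a1 4.22 to 5.18% and 3.58 to 5.10%. For Col20a1 the controls had 0.0192, 0.0128 and 0.0151% and the mutants 0.0461, 0.0326 and 0.0268%, a log2 difference of 1.15 with no overlap (two-sided exact permutation test, p = 0.1, the smallest possible). Over the other 8 genes the log2 differences were between −0.19 and 0.10, with p from 0.2 to 1 in the same exact permutation test, and no adjustment over the 9 ratios could bring any of them under 0.05.

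**Figure D3:**
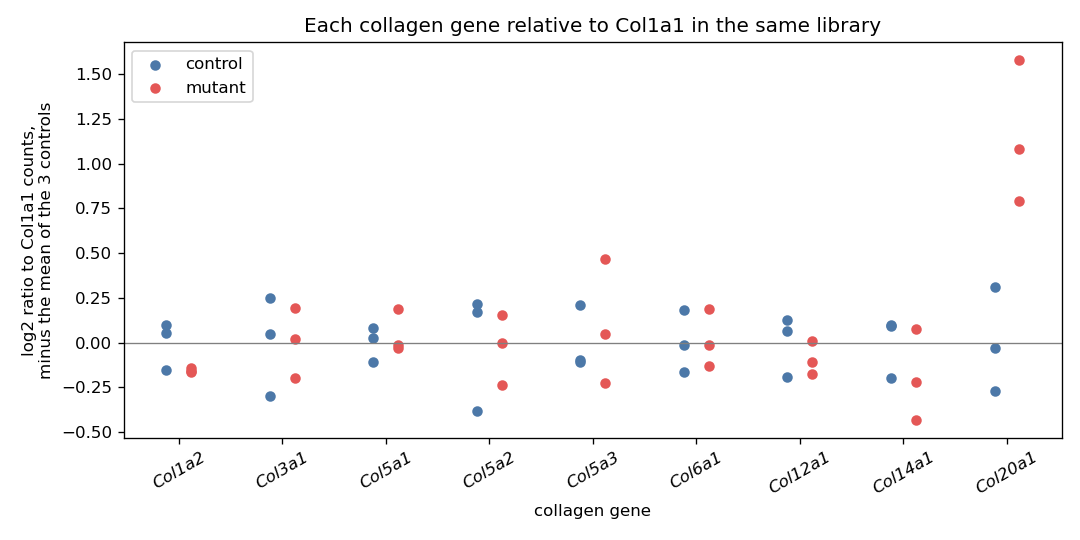
Points give, for each animal, the log2 ratio of a gene's counts to those of Col1a1 in the same library, minus the mean of the 3 controls for that gene. Only for Col20a1 are the 3 mutants apart from the 3 controls, and the 8 other genes have mean differences between −0.19 and 0.10.

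The genes also differed among the animals within a genotype. Control 3 was the highest of the 6 libraries for 5 of the 10 genes, mutant 3 for 4 and mutant 1 for 1, while mutant 1 was the lowest for 5, control 1 for 4 and control 2 for 1. The largest spread among the more abundant genes was that of Col5a3, whose highest library was 1.70 times its lowest, and Col1a1 and Col14a1 spread 1.44-fold and 1.49-fold. For these genes the 95% intervals of the fold change between genotypes, such as −0.42 to 0.44 on the log2 scale for Col1a1, show how large a difference these 6 animals could have hidden.

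The other collagens gave a wider range of estimates. None of the 8 cartilage collagen genes (Col2a1, Col9a1, Col9a2, Col9a3, Col10a1, Col11a1, Col11a2 and Col27a1) and none of 26 further collagen genes passed the edgeR test, and their median log2 fold changes were −0.0027 and −0.24. Of the 26, the estimate was below 0 for 18, against 8520 of the 16813 genes tested. All mutants were below all controls for 6 of the 26 (7.58% of all genes) and above for 0 (6.85% of all genes). Col8a1, a short-chain network collagen of vessels and other tissues, came nearest to the threshold. It was at 139, 192 and 155 CPM in the control mice and 78.5, 104 and 71.0 CPM in the mutant mice, with a log2 fold change of −0.94 (standard error 0.16, Benjamini-Hochberg adjusted p = 0.062 in edgeR). Col4a4, a chain of basement membrane collagen, was at 2.02 to 2.49 CPM in the control mice and 1.14 to 1.46 CPM in the mutant mice (log2 fold change −0.77, Benjamini-Hochberg adjusted p = 0.382 in edgeR). Col9a1, a FACIT of cartilage, was at 326 to 816 CPM in the control mice and 305 to 532 CPM in the mutant mice (log2 fold change −0.43, Benjamini-Hochberg adjusted p = 0.764 in edgeR).

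**Figure D4:**
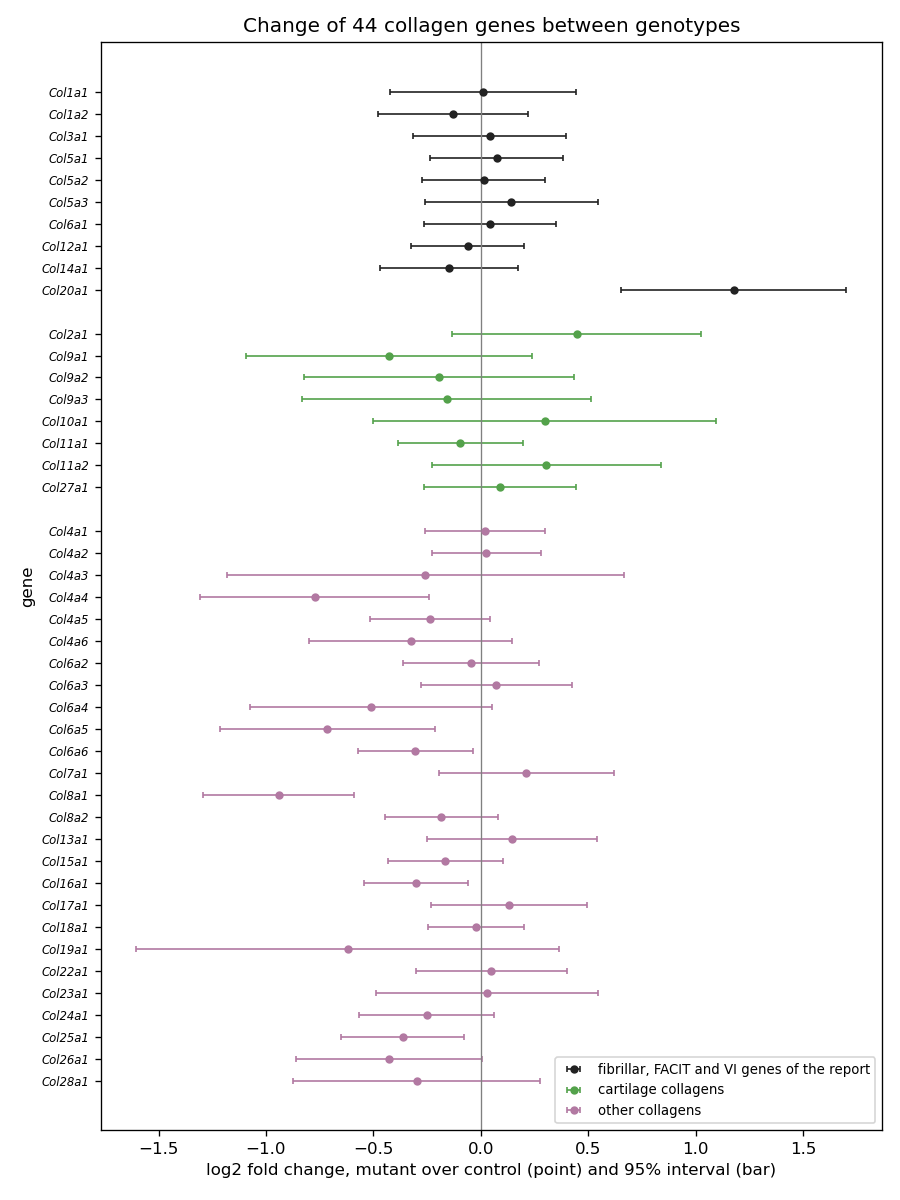
Points are the log2 fold changes (mutant over control) of 44 collagen genes from edgeR and bars their 95% intervals, with the 10 genes of bone and tendon in black, 8 cartilage collagens in green and 26 others in purple. Intervals that cross 0 do so for 9 of the 10 black genes, and the interval of Col20a1 runs from 0.66 to 1.70.

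The enzymes and chaperones that make procollagen gave 0 calls among 21 genes, with a median log2 fold change of 0.08. At an unadjusted edgeR p under 0.05, 4 of the 21 were higher (3.71% of all genes) and 0 lower (4.93% of all genes). All mutants were above all controls for 6 of the 21 (6.85% of all genes) and below for 0 (7.58% of all genes). P4ha2 and P4ha1, catalytic subunits of the prolyl hydroxylases that stabilise the helix, led this list. P4ha2 was at 195, 204 and 169 CPM in the control mice and 266, 273 and 325 CPM in the mutant mice (log2 fold change 0.61, Benjamini-Hochberg adjusted p = 0.0813 in edgeR). P4ha1 was at 380, 380 and 323 CPM in the control mice and 475, 524 and 492 CPM in the mutant mice (log2 fold change 0.46, Benjamini-Hochberg adjusted p = 0.141 in edgeR). Both genes were higher in each mutant than in any control, although neither passed the threshold.

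Of the proteases and lysyl oxidases that trim procollagen and cross-link fibrils, 12 of 13 could be tested (Tll2 was too low). Of the 12, 0 were called, with a median of −0.0084. All mutants were above all controls for 2 of them (6.85% of all genes) and below for 0 (7.58% of all genes). The lowest p were those of Adamts14, a procollagen protease, and Loxl1, a cross-linking oxidase, with log2 fold changes of 0.26 and −0.19 (Benjamini-Hochberg adjusted p = 0.557 and 0.628 in edgeR). Proteoglycans and glycoproteins that bind fibrils also had 0 calls among 13 genes and a median of −0.05. Of the 13, 4 had all mutants below all controls (7.58% of all genes) and 0 had all above (6.85% of all genes). Fmod (fibromodulin), a small proteoglycan that binds type I fibrils and is abundant in tendon and cartilage, was at 1578, 1662 and 1913 CPM in the control mice and 1146, 891 and 998 CPM in the mutant mice (log2 fold change −0.76, Benjamini-Hochberg adjusted p = 0.0602 in edgeR). Kera (keratocan), a proteoglycan of the same family, was at 153 to 215 CPM in the control mice and 91.8 to 131 CPM in the mutant mice (log2 fold change −0.75, Benjamini-Hochberg adjusted p = 0.135 in edgeR). Integrins, discoidin receptors and degrading enzymes gave 0 calls among 12 genes and a median of −0.05.

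Tissues that use the collagens described here were followed by their markers. Among 7 tendon markers 1 passed the test (0.190% of all genes): Tnmd (tenomodulin), a membrane protein of tendon cells, fell from 548, 527 and 437 CPM in the control mice to 257, 287 and 321 CPM in the mutant mice (log2 fold change −0.81, standard error 0.12, Benjamini-Hochberg adjusted p = 0.0374 in edgeR). In all, 6 of the 7 had all mutants below all controls (7.58% of all genes), and the median was −0.75. The remaining marker, Thbs4, named here after its values were seen, had a log2 fold change of 0.02 (Benjamini-Hochberg adjusted p = 0.985 in edgeR). Fmod and Kera, given above among the genes that bind fibrils, are in this list too. The list was chosen with earlier results of these data known. The tendon markers summed to 3226 to 3457 CPM in the control mice and 2118 to 2485 CPM in the mutant mice. These 2 ranges did not overlap. Fmod, which is also abundant in cartilage, made up 1578 to 1913 CPM of the sum in the control mice and 891 to 1146 CPM in the mutant mice. Over the same libraries the 10 collagen genes summed to 83040 to 106800 CPM and 85950 to 93960 CPM, which overlapped.

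Osteoblast markers gave 0 calls among 12 genes, with a median of 0.47 and estimates above 0 for 11, against 8293 of the 16813 genes tested. At an unadjusted edgeR p under 0.05, 2 of the 12 were higher (3.71% of all genes) and 1 lower (4.93% of all genes). All mutants were above all controls for 1 (6.85% of all genes) and below for 1 (7.58% of all genes). The 12 markers summed to 1692, 730 and 443 CPM in the control mice and 1736, 2518 and 1496 CPM in the mutant mice, so that control 1 lay among the mutants. Dmp1, a matrix protein of osteocytes, was at 6.76 to 82.9 CPM in the control mice and 84.5 to 198 CPM in the mutant mice (log2 fold change 1.75, Benjamini-Hochberg adjusted p = 0.522 in edgeR). Ibsp (bone sialoprotein) was at 120 to 974 CPM in the control mice and 952 to 1475 CPM in the mutant mice (log2 fold change 1.32, Benjamini-Hochberg adjusted p = 0.557 in edgeR). The 1 marker with an estimate below 0 was Runx2, a transcription factor of osteoblasts and maturing chondrocytes, named here after its values were seen. Runx2 was at 45.6, 41.0 and 43.9 CPM in the control mice and 37.2, 39.9 and 24.5 CPM in the mutant mice, lower in every mutant than in any control (log2 fold change −0.36, Benjamini-Hochberg adjusted p = 0.563 in edgeR). Loose connective tissue is rich in type I and type III collagen, and its 8 markers gave 0 calls, a median of −0.04 and sums of 1939 to 2036 CPM and 1670 to 2236 CPM. Muscle markers gave 0 calls among 8, a median of −0.03 and sums of 14570 to 21580 CPM and 13930 to 20090 CPM. Chondrocyte markers gave 0 calls among the 7 measured and a median of −0.18. How much of each collagen came from each of these tissues was not tested.

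**Figure D5:**
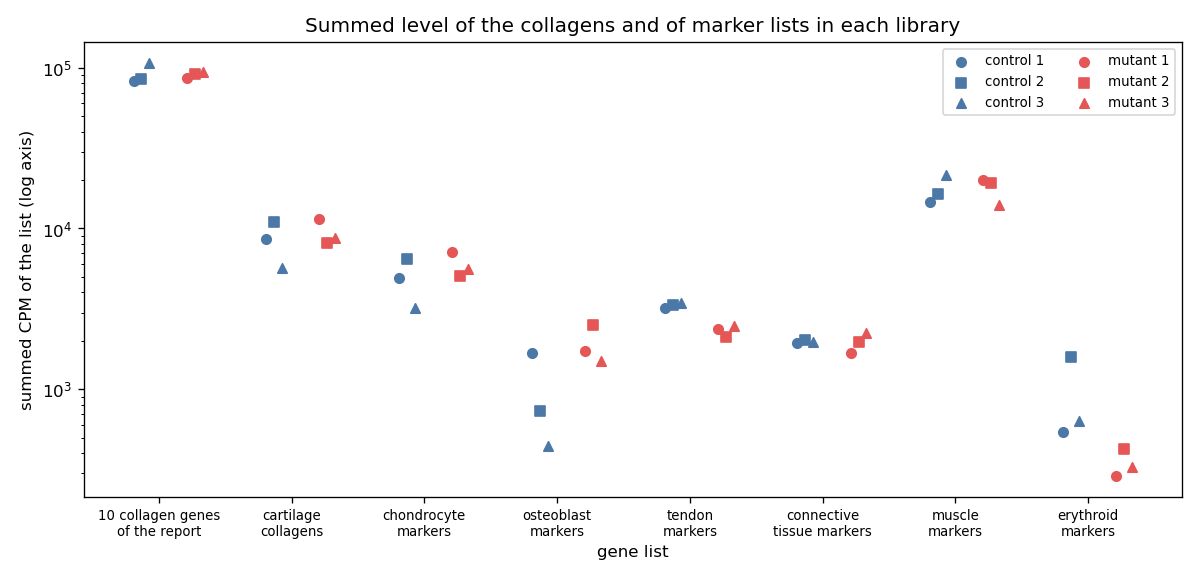
Each point is the summed CPM of a gene list in 1 library, on a log axis, with controls in blue and mutants in red and a marker shape for each replicate number. The 10 collagen genes (83040 to 106800 CPM) overlap between genotypes. The tendon markers of the mutants (2118 to 2485 CPM) lie below those of the controls (3226 to 3457 CPM), and include Fmod, which is also abundant in cartilage.

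The genes most like a collagen in their pattern over the 6 libraries were found by Pearson's correlation of log2 CPM over all genes tested, which for 6 points describes these libraries and carries no test. Nearest to Col20a1 were Gm15696, Mrps10 and Phka1 (r = 0.996, 0.993 and 0.990), and nearest to Col14a1 were Galm, Dpp4 and Anp32b (r = 0.995, 0.983 and 0.982). Nearest to Col1a2 were Ddit4, Pim1 and Arvcf (r = 0.994, 0.993 and 0.991), and nearest to Col1a1 were Smpd1, 9130221H12Rik and Gnb2 (r = 0.992, 0.989 and 0.986). The 4 sets had no gene in common.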

How the data were processed

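RNA of growth plate cartilage was sequenced from 3 control mice and 3 Idh1 mutant mice (E18.5) with a stranded poly-A kit. The deposited values are whole-number counts of reads per gene and library, without normalization. Per the submitters' processing notes, the authors trimmed reads with Trim Galore 0.6.4, aligned them with STAR 2.6.1d to GRCm38 and counted exons with featureCounts 1.6.4. Per the file headers strand was ignored, so that reads of a collagen gene and of an overlapping antisense gene (Col5a1, Col5a3, Col12a1 and Col14a1 have such neighbours) cannot be told apart, and reads shared by several genes were not counted. The notes also name DESeq2 1.28.1.

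Groups and replicate numbers came from the titles and genotype labels. From the deposited counts, edgeR 4.0.16 in R 4.3.3 (filterByExpr, minimum count 10, minimum total 15, TMM) gave the quasi-likelihood test over 16813 genes with Benjamini-Hochberg adjustment. Ratios were compared with exact two-sided permutation tests over animals, whose smallest p is 0.1. Alternatives were DESeq2 1.42.0, limma-voom (limma 3.58.1), a replicate block, upper-quartile factors, TMM without the 10 genes and the 20 genes with most counts, no filter, at least 10 counts in every library, a Y-linked covariate and each library left out. Division by principal transcript length was added after the values were seen, and figures were drawn with matplotlib 3.10.9.

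The study's model had litter as a term, which the labels do not give. Replicate libraries differed beyond sampling noise (chi-square over its degrees of freedom 11.7 to 45.9). This excess does not by itself show that the libraries are independent animals, and each library was taken as a sample. Same-numbered animals did not deviate together (correlations −0.13, 0.0048 and −0.10). The functions were tested on simulated counts. The 10 genes and the gene and marker lists were chosen with earlier results of these data known. Beside the 10 genes, Col2a1, Col6a2 and Col6a3, genes named are the called ones of each list, at most 4, or the pair with the lowest p where none was called, and the 3 genes most correlated with Col1a1 and with each of the 3 collagens of lowest p. Runx2, Thbs4, Krt1, Krt10 and Trp63 were named after their values were seen. No column of per-sample values was left unused. No protein sequences were used here.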

Additional observations from a re-analysis of the deposited data

How the results depend on the processing

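Of 90 single-gene values of the 10 collagens with other settings, 83 held both direction and side of the threshold. The number of the 10 past the threshold was 0 in the edgeR test and 1 with DESeq2, 1 with DESeq2 and the replicate block, and 1 without the low-count filter, Col20a1 each time. Over all genes, 32 calls became 193 with DESeq2, 96 with DESeq2 and the replicate block, 3 with edgeR and the replicate block (2 higher and 1 lower, against 9 and 23), 19 with limma-voom, 259 without the filter and 6 with the Y-linked covariate. With a library left out, 3 to 17 genes were called (3 without mutant 2, 17 without control 3) and 0 of the 10. The Y-linked covariate turned the estimates of Col3a1 (−0.0392), Col5a2 (−0.0643), Col5a3 (−0.0408) and Col6a1 (−0.0374) below 0. Leaving out a library changed the sign in 12 of 60 values, none of them called, with log2 ranges of −0.0823 to 0.21 for Col1a1, −0.0493 to 0.15 for Col3a1, −0.0034 to 0.21 for Col5a1, −0.0765 to 0.12 for Col5a2, −0.0574 to 0.30 for Col5a3, −0.0489 to 0.14 for Col6a1 and −0.11 to 0.0242 for Col12a1. Without a sign change, Col1a2 moved from −0.13 to between −0.18 and −0.0207 (without control 3), and Col14a1 from −0.15 to between −0.29 (without mutant 3) and −0.0286 (without mutant 1), with −0.28 under the Y-linked covariate. The ratios moved between −0.82 and 0.0182 for Col1a1 over Col2a1 and, relative to Col1a1, between −0.15 and 0.13 for Col3a1, −0.0197 and 0.0918 for Col5a1, −0.22 and 0.0792 for Col5a2, −0.0880 and 0.26 for Col5a3, and −0.0720 and 0.10 for Col6a1. Those of Col1a2, Col12a1 and Col14a1 stayed below 0, at −0.23 to −0.10, −0.19 to −0.0280 and −0.33 to −0.0719. The level of Col1a2 over Col1a1 moved from 0.322 to 0.660 and that of Col6a2 over Col6a1 from 0.502 to 0.991 with the principal transcript length, a choice made after the values were seen. The fit with the replicate block gave Col20a1 an adjusted p of 0.265 in edgeR. Tnmd and Krt5, both called lower in the main edgeR test, cannot both have been called lower in that fit, which called 1 gene lower. The same holds without mutant 2, where 1 gene was called lower. Whether animals with the same replicate number were littermates is not in the labels. What causes the changes named here was not tested. Depth limits Col20a1, at 131 to 412 counts, more than the other 9 genes.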

Other observations

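Gene groups without a direct part in collagen fibrils gave these values. The 6 erythroid markers had a median log2 fold change of −1.34, with 0 calls. Of the 6, 5 were lower in every mutant than in any control (7.58% of all genes). Alas2, the first enzyme of haem synthesis in red cell precursors, was at 25.6, 59.7 and 24.5 CPM in the control mice and 9.66, 13.5 and 11.5 CPM in the mutant mice (log2 fold change −1.67, Benjamini-Hochberg adjusted p = 0.112 in edgeR), and Hbb-bt, an adult beta globin gene, had a log2 fold change of −1.37 (Benjamini-Hochberg adjusted p = 0.211 in edgeR). Summed levels were 545, 1583 and 639 CPM in the control mice and 288, 427 and 329 CPM in the mutant mice.

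Of the keratinocyte markers 4 of 6 could be tested and 1 was called (0.190% of all genes). Krt5, a keratin of basal epidermis, fell from 2.95, 7.90 and 5.53 CPM in the control mice to 0.339, 0 and 0.379 CPM in the mutant mice (Benjamini-Hochberg adjusted p = 0.0355 in edgeR). The mutants had only 8, 0 and 11 counts of it. Krt1, Krt10 and Trp63, the other tested markers, overlapped between the genotypes, with log2 fold changes of −1.20, −0.04 and −0.16. The 6 endothelial markers had a median of 0.09 and 0 calls, with estimates above 0 for 4 and below 0 for 2. At an unadjusted edgeR p under 0.05, 2 of the 6 were higher (3.71% of all genes) and 0 lower (4.93% of all genes). All mutants were above all controls for 2 of the 6 (6.85% of all genes) and below for 0 (7.58% of all genes). The lowest p were those of Emcn and Kdr, at log2 fold changes of 0.30 and 0.25 (Benjamini-Hochberg adjusted p = 0.323 and 0.324 in edgeR). The 6 osteoclast markers had a median of −0.11 and 0 calls, with estimates above 0 for 2 and below 0 for 4. Ctsk and Calcr, with the lowest p, were at −0.36 and −0.58 (Benjamini-Hochberg adjusted p = 0.629 and 0.812 in edgeR). Among collagen receptors and degrading enzymes, Ctsk and Mmp2, at a log2 fold change of −0.19, had the lowest p (Benjamini-Hochberg adjusted p = 0.677 in edgeR for Mmp2). Of the chondrocyte markers 3 had estimates above 0 and 4 below, of the muscle markers 3 above and 5 below, and of the connective tissue markers 2 above and 6 below. The lowest p among them were those of Acan (log2 fold change 0.20) for chondrocytes, Myh8 (0.23) for muscle, and Lum (0.20) and Col15a1 (−0.16) for connective tissue (Benjamini-Hochberg adjusted p = 0.646, 0.807, 0.749 and 0.778 in edgeR).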
